A study of Mus musculus with 12 samples.

Results

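The antioxidant system governed by the transcription factor NRF2 was followed in the livers of mice given silver nanoparticles by gavage. The set held 39 genes, chosen by function: the NRF2 axis itself, targets of NRF2, glutathione synthesis and recycling, thioredoxins and peroxiredoxins, enzymes that remove superoxide and peroxide, glutaredoxins with methionine repair, and the supply of NADPH. Of these, 33 had a probe set that named no other gene, out of 30142 such genes on the array, and 32 were bright enough to be tested, out of 20020. Slc7a11, the cystine transporter, was not tested: its log2 signal lay between 3.75 and 4.07 in all mice, with a mean of 3.84 under the filter of 3.93. Gclm, Prdx1 and Tkt were represented only on probe sets that also name other genes, and Prdx5, Prdx6 and G6pdx were not analysed here.

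The 12 mice, all 3 months old, belonged to C57BL/6J -Oca2p-un/J, so every group, the controls included, carried the same Oca2 allele. In the PVP-AgNP group, 4 mice (2 of each sex) received 7 daily doses, each of 4 mg Ag per kg, as particles of 20 nm coated with polyvinylpyrrolidone. The cit-AgNP group of 4 (2 of each sex) received citrate-coated particles of the same size at the same dose, and the control group of 4 (2 of each sex) received water. Livers were taken 24 h after the last dose, and 1 array per mouse was hybridised with total RNA. The groups analysed here include neither ionic silver nor a coating alone, so effects of the particle, its coating and dissolved silver cannot be told apart.

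NRF2, encoded by Nfe2l2, is held in the cytoplasm and marked for degradation by KEAP1. When oxidants or electrophiles modify KEAP1, NRF2 reaches the nucleus, pairs with a small MAF protein such as MAFG and binds antioxidant response elements in front of detoxifying genes. Its activity is set largely by the stability of the protein, so mRNA levels do not measure it directly. The liver is the main site of glutathione synthesis in the body, and its thioredoxin and glutathione systems both draw reducing power from NADPH.

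The core of the antioxidant response element, TGACNNNGC, was looked for on both strands in the RefSeq window of each gene (250 bases before to 50 bases after the start, GRCm38.p6). It was present in 9 of the 34 listed genes with a window (26.5%) and in 6 of the 28 tested genes with one (21.4%), against 14.0% of all 27025 RefSeq genes with a window. Windows of Nqo1, Osgin1 and Keap1 held no match, and none was given for Gclc, Gsr, Msra and Sod3. The 4 matches below lie upstream of tested genes and are shown because 2 of those genes, Nfe2l2 and Mafg, encode NRF2 and its partner, and because the others stand for the thioredoxin and superoxide branches. Each is written 5′ to 3′ on the strand of its gene, with the matching letters in capitals, which read as the reverse complement in the last 3. A match describes the letters only and is not evidence of binding.
Nfe2l2, chr2:75704869-75704913, minus strand, match 240 bases upstream of the start: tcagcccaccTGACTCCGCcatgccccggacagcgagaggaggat
Mafg, chr11:120633735-120633795, minus strand, match 222 bases upstream: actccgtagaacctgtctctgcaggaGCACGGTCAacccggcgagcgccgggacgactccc
Txnrd1, chr10:82859088-82859148, plus strand, match 92 bases upstream: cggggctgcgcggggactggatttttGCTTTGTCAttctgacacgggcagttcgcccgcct
Sod1, chr16:90220680-90220740, plus strand, match 56 bases upstream: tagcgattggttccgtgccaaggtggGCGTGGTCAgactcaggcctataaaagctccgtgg

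The arrays were not of equal quality. As a measure, 1324 probe sets for exons and 5222 for introns of control genes were ranked by signal, and the area under the ROC curve was taken, which is higher the better the exons stand out. It was 0.802 ± 0.0198 in PVP-AgNP livers and 0.820 ± 0.00624 in cit-AgNP livers, against 0.824 ± 0.016 in control livers (SD, n = 4 each; exact permutation test, two-sided, PVP-AgNP against control p = 0.171, cit-AgNP against control p = 0.714). PVP-AgNP mice 1 and 4, with areas of 0.778 and 0.794, had the lowest of the 12 arrays, so the main counts, and the fold changes of the genes described most fully, are also given without them. Of 7 hepatocyte markers, 6 (Alb, Ttr, Apoa1, Serpina1c, Tat and Cps1) read between 19.53 and 19.93 in every liver, where the scale ends at 19.93, so their summed signal could hardly vary. The other, Hnf4a, read 11.10 to 12.11. Bulk RNA cannot tell fewer cells of a type from less RNA per cell, which applies to every gene below.

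No antioxidant gene passed the threshold of an adjusted p of 0.05 (limma, over all genes tested) for either coating, in either direction. In PVP-AgNP livers, 29 of the 32 tested genes nevertheless had a fitted level below that of control livers, against 50.5% of all genes tested. The median log2 fold change of the 32 was -0.25, against -0.0023 over all genes, and the values ran from -1.18 for Ephx1 to 0.12 for Prdx4. All genes were not matched to the 32 in signal, and with genes under the filter included their median was 0.03. At an adjusted p of 0.05, 0 of the 32 passed, with 0.0400% of all genes called (8 of 20020). At an unadjusted p of 0.05, 13 of the 32 were lower (40.6%) and 0 were higher, against 12.2% of all genes lower and 8.08% higher. For 6 of the 32 (18.8%), Prdx2, Txn2, Prdx3, Txnrd2, Gss and Keap1, all 4 PVP-AgNP livers were below all 4 control livers, against 4.91% of all genes.

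In cit-AgNP livers, the median log2 fold change of the same 32 genes was -0.09, against 0.00041 over all genes, and 22 of 32 were below 0, against 49.6% of all genes. Again 0 of 32 passed the adjusted threshold, with 0.00500% of all genes called (1 of 20020). At an unadjusted p of 0.05, 4 of 32 (12.5%), Nfe2l2, Nqo1, Mafg and Osgin1, were lower and 0 were higher, against 3.82% of all genes lower and 2.74% higher. For 2 of the 32 (6.25%), Nfe2l2 and Txn1, all cit-AgNP livers were below all control livers, against 2.37% of all genes. The count of 4 became 1 without control mouse 3, against 3.21% of all genes, and 2 without cit-AgNP mouse 3, against 3.28%. Both comparisons use the same 4 control mice, so their directions are not independent of each other.

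**Figure D1:**
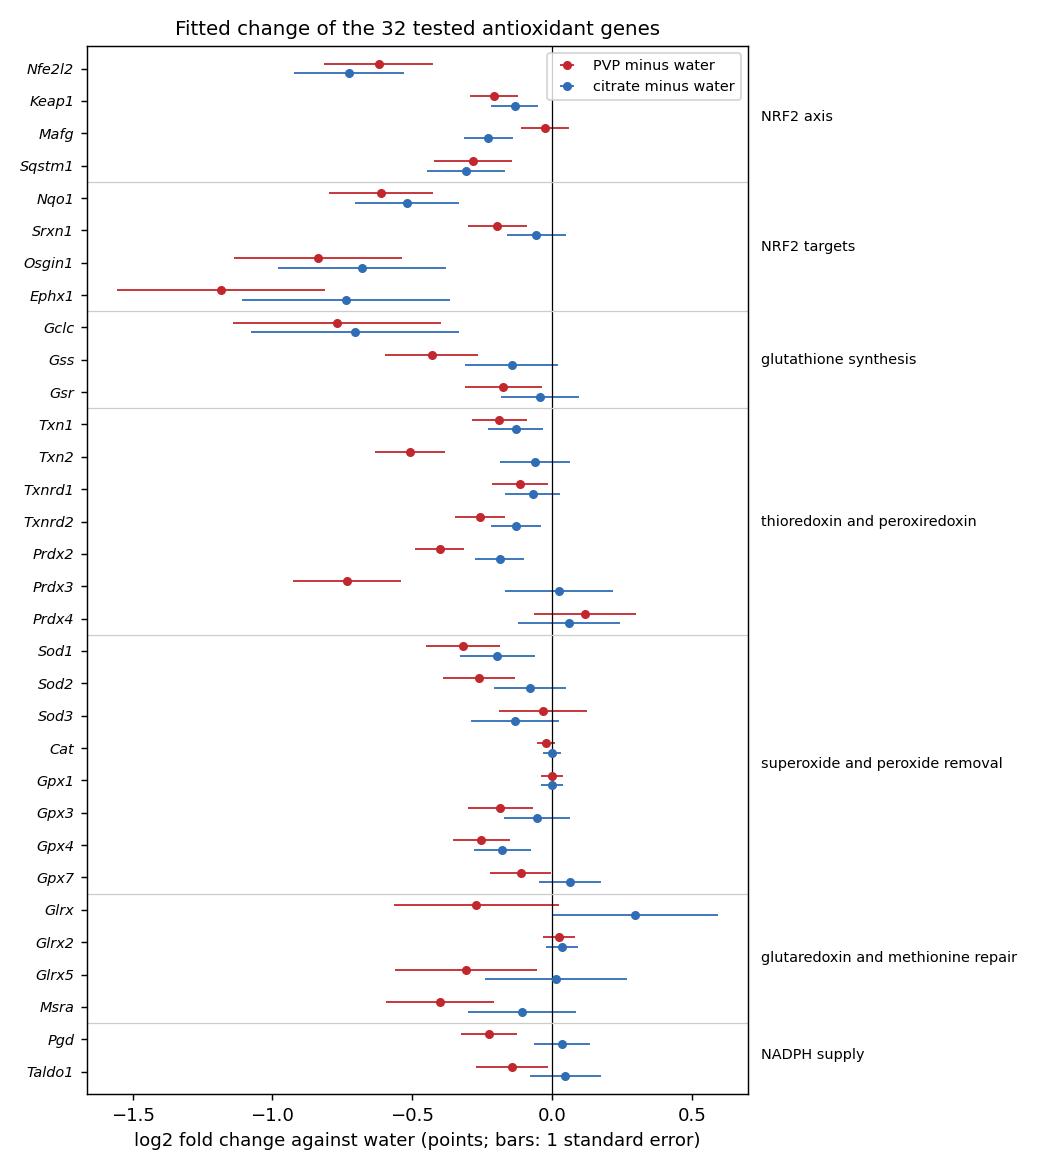
Fitted log2 fold change against water (horizontal axis) of the 32 tested genes, grouped by role down the page; points are estimates and bars 1 standard error, for PVP and for citrate. PVP points lie left of 0 for 29 genes and citrate points for 22, with the widest bars for Ephx1 and Gclc.

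The lower values in PVP-AgNP livers were unequal between mice and between arrays of different quality. Each liver was set against the mean of the 2 controls of its sex. The median of the 32 differences was -0.34 in PVP-AgNP mouse 1, -0.10 in mouse 2, -0.09 in mouse 3 and -0.34 in mouse 4. In the cit-AgNP mice it was -0.01, -0.08, -0.19 and -0.16. The 2 mice with the lowest medians were those with the lowest array quality. Without them, the median log2 fold change over the 32 genes was -0.13, and 4 genes were lower at an unadjusted p of 0.05 (12.5%), against 5.57% of all genes. With only PVP-AgNP mouse 1 left out, 7 genes were lower, against 8.63% of all genes. With only mouse 4 left out, 8 were, against 8.60%. With the area as a covariate, the median was -0.11 and 6 genes were lower, against 6.66% of all genes. With each array centred on its own median, which moved the median of all genes to -0.10, the median of the 32 was -0.35. The number of genes below 0 was between 27 and 31 of 32 under these and the other alternatives that kept all 32 genes.

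Without PVP-AgNP mice 1 and 4, the log2 fold changes of single genes against control moved by unequal amounts, and none passed the adjusted threshold. Those of Nqo1 (-0.64), Keap1 (-0.16), Prdx2 (-0.30), Osgin1 (-0.57) and Pgd (-0.20) moved by less than 1.5 times from the values given below. Those of Gclc (-0.46), Gss (-0.22), Sod1 (-0.14), Gpx4 (-0.13), Txn1 (-0.08), Srxn1 (-0.10) and Msra (-0.14) lay nearer to 0 by more than 1.5 times, and Mafg (-0.10) lay further from it. Txnrd1 came close to 0, at -0.008. Taldo1 changed sign, from -0.14 with all mice to 0.045.

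**Figure D2:**
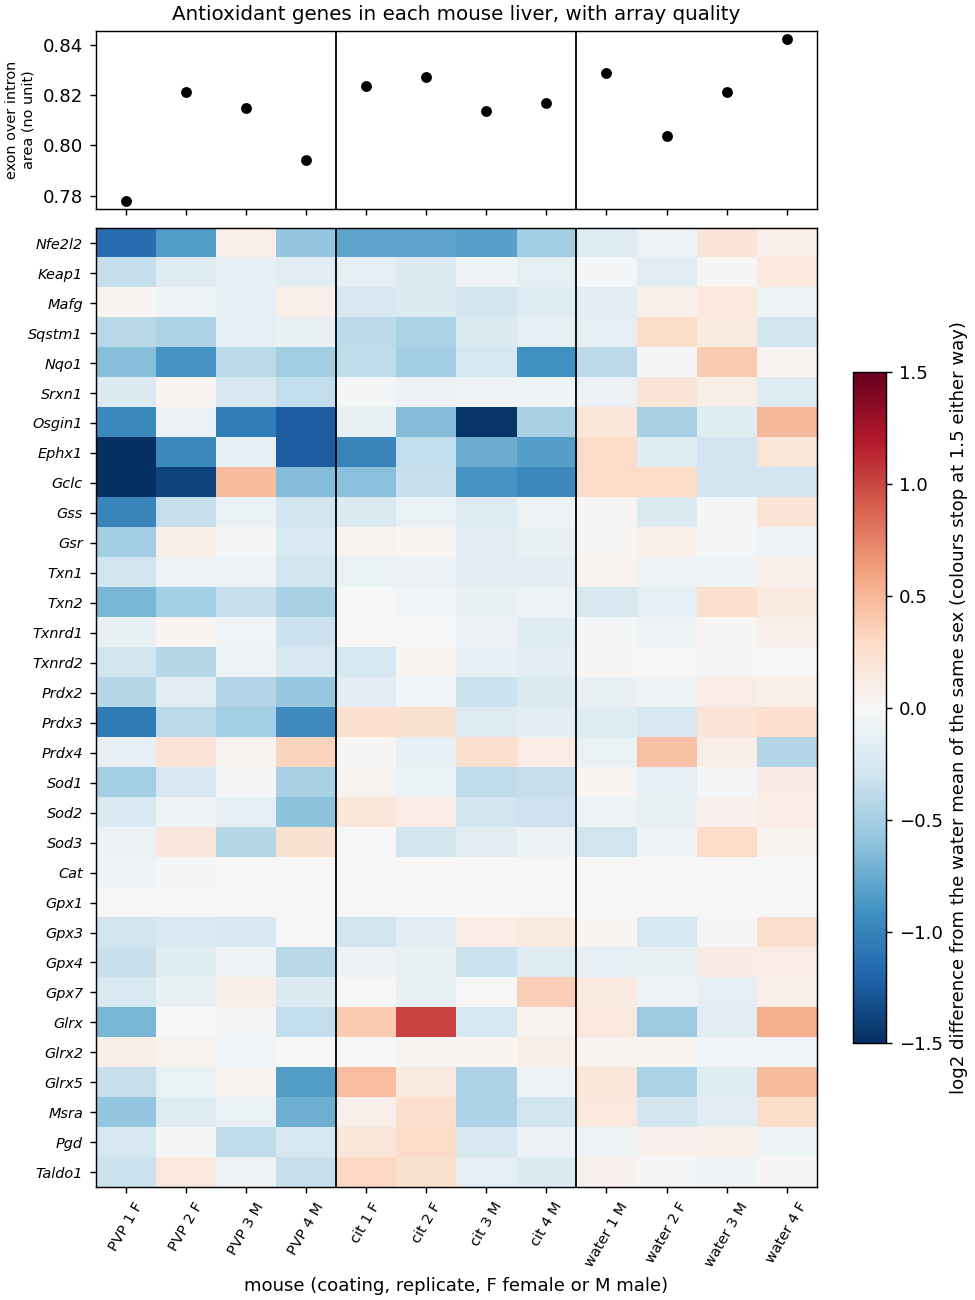
Upper panel: array quality of each mouse as the exon over intron area, without unit. Lower panel: log2 difference of each of the 32 genes from the water mean of the same sex, blue for lower and red for higher, 1 column per mouse and colours stopping at 1.5 either way; PVP mice 1 and 4 combine the lowest areas with the lowest medians, -0.34 each.

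NRF2's own transcript had a fitted level below control with both coatings, without passing the threshold. Nfe2l2 had a log2 signal of 7.48 and 7.78 in females and 8.21 and 7.56 in males given PVP-AgNP. It had 7.83 and 7.83 in females and 7.32 and 7.62 in males given cit-AgNP. Control livers had 8.54 and 8.70 in females and 7.95 and 8.33 in males. Every cit-AgNP liver was below every control liver, whereas 1 PVP-AgNP male lay inside the control range. The log2 fold change was -0.73 in cit-AgNP livers (SE 0.196, unadjusted p = 0.00377, adjusted p = 0.399) and -0.62 in PVP-AgNP livers (SE 0.196, unadjusted p = 0.00958, adjusted p = 0.159), so neither passed. Over the alternatives the adjusted p for PVP-AgNP ran from 0.0524 to 0.602, the highest being without PVP-AgNP mice 1 and 4, where the log2 fold change was -0.38.

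Keap1, the sensor that targets NRF2 for degradation, had 6.87 and 7.03 in females and 6.94 and 6.90 in males given PVP-AgNP, 7.10 and 7.02 in females and 7.00 and 6.91 in males given cit-AgNP, and 7.07 and 7.39 in control females and 7.04 and 7.07 in control males. All PVP-AgNP values were under all control values, but the highest of them, 7.03, was next to the lowest control, 7.04. Fitted log2 fold changes were -0.21 for PVP-AgNP (SE 0.0849, adjusted p = 0.213) and -0.13 for cit-AgNP (adjusted p = 0.894). The control female at 7.39 stood above the other control mice, and without her the log2 fold changes were -0.13 for PVP-AgNP and -0.06 for cit-AgNP.

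Mafg, the small MAF partner of NRF2, had 7.05 and 6.96 in females and 7.01 and 7.23 in males given PVP-AgNP, and 6.78 and 6.82 in females and 6.88 and 6.95 in males given cit-AgNP. Control livers had 7.09 and 6.95 in females and 6.99 and 7.31 in males. Its log2 fold change was -0.23 for cit-AgNP against control (SE 0.0870, unadjusted p = 0.0251, adjusted p = 0.632) and -0.03 for PVP-AgNP against control. All PVP-AgNP values lay above all cit-AgNP values, with a difference of 0.20 (95% interval 0.01 to 0.39, adjusted p = 0.346). Sqstm1, which encodes the autophagy receptor p62 that binds KEAP1, had means of 10.52 ± 0.22 in PVP-AgNP and 10.50 ± 0.19 in cit-AgNP livers, against 10.81 ± 0.26 in control livers (SD, n = 4 each), and passed in neither comparison.

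Among the targets of NRF2, all 4 tested genes had a fitted level below control with both coatings. So did 50.5% of all genes for PVP-AgNP and 49.6% for cit-AgNP. The median log2 fold changes of the 4 were -0.72 for PVP-AgNP and -0.60 for cit-AgNP. Nqo1, a quinone reductase used as the standard reporter of NRF2 activity, had 7.01 and 6.76 in females and 6.12 and 6.01 in males given PVP-AgNP. It had 7.27 and 7.13 in females and 6.27 and 5.61 in males given cit-AgNP, and 7.62 and 7.68 in control females and 6.14 and 6.92 in control males. Within females, each treated liver was below both controls. Within males, 1 cit-AgNP liver lay between the controls and the other 3 treated livers were below both. In the fit, the log2 fold change was -0.61 for PVP-AgNP (SE 0.187, unadjusted p = 0.00810, adjusted p = 0.153) and -0.52 for cit-AgNP (SE 0.187, unadjusted p = 0.0192, adjusted p = 0.591).

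Srxn1, the sulfiredoxin that repairs overoxidised peroxiredoxins, had 7.24 and 7.49 in females and 7.49 and 7.35 in males given PVP-AgNP, 7.43 and 7.37 in females and 7.67 and 7.65 in males given cit-AgNP, and 7.64 and 7.27 in control females and 7.64 and 7.80 in control males. The groups overlapped, and the log2 fold changes of -0.20 for PVP-AgNP (adjusted p = 0.316) and -0.06 for cit-AgNP (adjusted p = 1) did not pass. Osgin1, an oxidative stress-induced growth inhibitor, had 6.47 and 7.35 in females and 7.40 and 7.20 in males given PVP-AgNP, 7.32 and 6.79 in females and 6.98 and 7.96 in males given cit-AgNP, and 6.95 and 7.91 in control females and 8.62 and 8.27 in control males. One control female, at 6.95, lay among the treated mice, and the log2 fold changes were -0.84 for PVP-AgNP (SE 0.30, adjusted p = 0.185) and -0.68 for cit-AgNP (SE 0.30, adjusted p = 0.754).

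Ephx1, the microsomal epoxide hydrolase, had the lowest fold change of the 32 genes and also a large spread. It had 12.67 and 14.09 in females and 15.54 and 14.42 in males given PVP-AgNP, 14.05 and 14.69 in females and 14.92 and 14.85 in males given cit-AgNP, and 14.87 and 15.24 in control females and 15.95 and 15.38 in control males. PVP-AgNP mouse 1, a female, was the lowest of the 12 mice, and PVP-AgNP mouse 3, a male, lay within the control range. Against control it had a log2 fold change of -1.18 for PVP-AgNP (SE 0.372, adjusted p = 0.159) and -0.74 for cit-AgNP (SE 0.372, adjusted p = 0.830). Without PVP-AgNP mice 1 and 4 it was -0.55 for PVP-AgNP (adjusted p = 0.561), as it was with array quality as a covariate (adjusted p = 0.546).

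**Figure D3:**
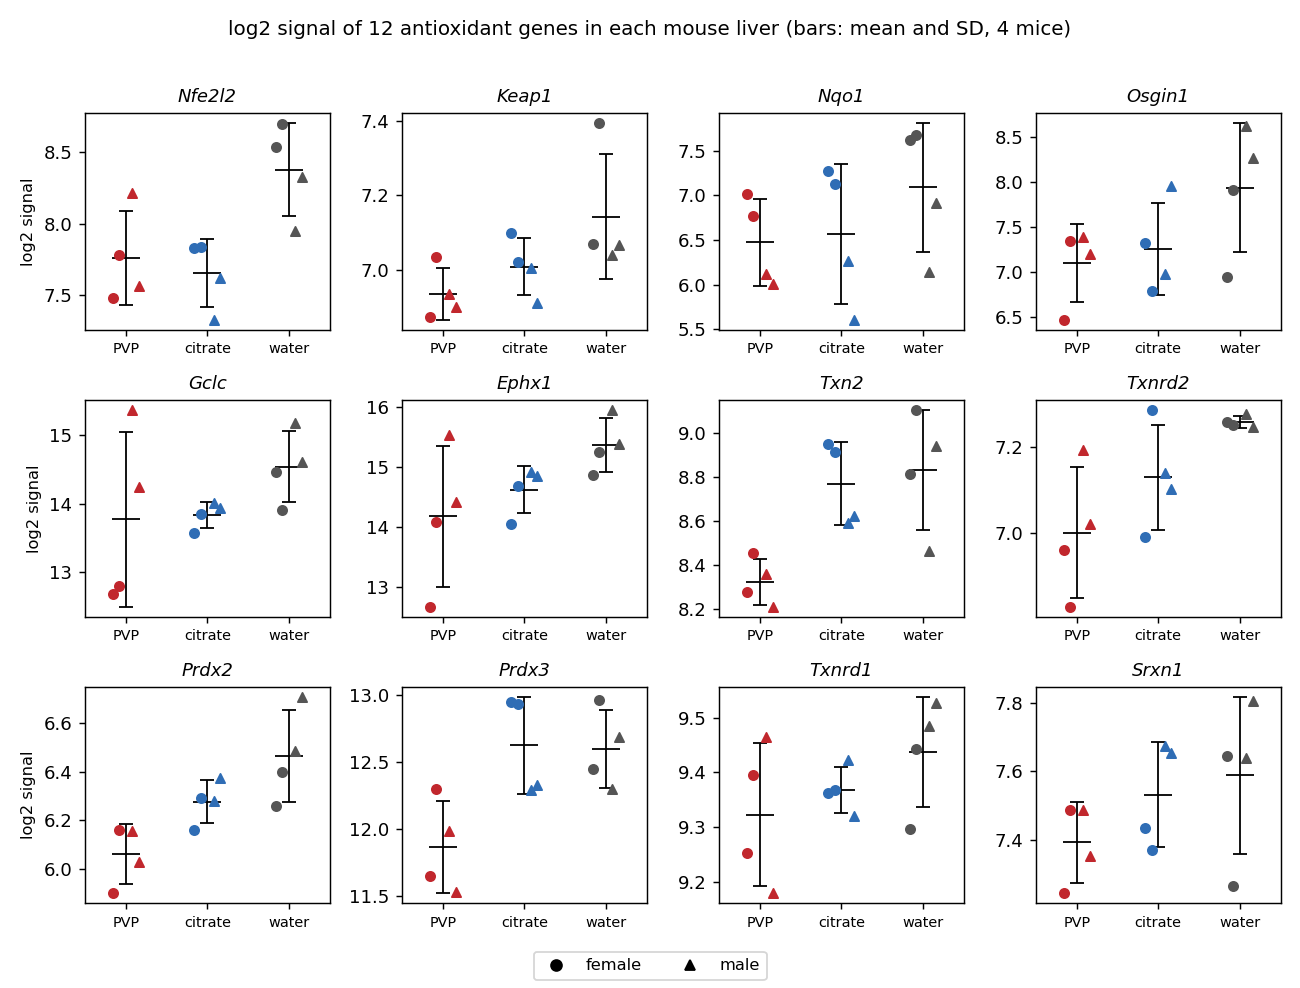
Log2 signal (vertical axis, a separate scale for each gene) of 12 genes in each liver for PVP, citrate and water; circles are females, triangles are males, and the bar and whiskers give the mean and SD of 4 mice. Txn2 and Prdx2 in PVP livers lie under all water livers, while Nqo1 and Gclc show a spread between the sexes.

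In glutathione synthesis and recycling, the 3 tested genes were all below 0 with both coatings. Among all genes, 50.5% were below 0 for PVP-AgNP and 49.6% for cit-AgNP. Of the 3, 1 gene, Gss, was lower at an unadjusted p of 0.05 in PVP-AgNP livers, against 12.2% of all genes. Without PVP-AgNP mice 1 and 4, 2 of the 3 were below 0 and 0 were lower at that level, against 5.57% of all genes. Gclc, the catalytic subunit of the rate-limiting glutamate-cysteine ligase, had 12.69 and 12.80 in females and 15.37 and 14.24 in males given PVP-AgNP. It had 13.57 and 13.84 in females and 14.01 and 13.93 in males given cit-AgNP, against 14.47 and 13.91 in control females and 15.18 and 14.61 in control males. In females every treated liver was below both controls, and the lowest 2 of the 12 values were those of the PVP-AgNP females. Fitted log2 fold changes were -0.77 for PVP-AgNP (SE 0.372, adjusted p = 0.273) and -0.70 for cit-AgNP (SE 0.372, adjusted p = 0.849).

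Gss, which completes glutathione by adding glycine, had 7.71 and 8.36 in females and 8.49 and 8.30 in males given PVP-AgNP, against 8.50 and 8.91 in control females and 8.61 and 8.57 in control males. The cit-AgNP livers, at 8.49 and 8.61 in females and 8.40 and 8.52 in males, overlapped both groups. The PVP-AgNP and control ranges did not overlap, and the log2 fold change was -0.43 (SE 0.167, unadjusted p = 0.0264, adjusted p = 0.201). Gsr, the reductase that returns oxidised glutathione to its reduced form, had log2 fold changes of -0.17 for PVP-AgNP and -0.04 for cit-AgNP, well within its spread.

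The thioredoxin and peroxiredoxin branch held the lowest p-values of the set in PVP-AgNP livers. Of its 7 tested genes, 4 were lower at an unadjusted p of 0.05, Prdx2, Txn2, Prdx3 and Txnrd2, where 12.2% of all genes were. Of these, Txn2, Txnrd2 and Prdx3 encode the mitochondrial thioredoxin, its reductase and the peroxiredoxin that it recharges. With PVP-AgNP mice 1 and 4 left out, 3 of the 7 were, where 5.57% of all genes were. In cit-AgNP livers 0 of the 7 reached that level, where 3.82% of all genes did.

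Txn2 had 8.28 and 8.45 in females and 8.36 and 8.21 in males given PVP-AgNP, 8.95 and 8.92 in females and 8.59 and 8.62 in males given cit-AgNP, and 8.82 and 9.11 in control females and 8.46 and 8.94 in control males. All PVP-AgNP livers were below all livers of both other groups, the highest PVP-AgNP value and the lowest control value being 0.01 apart on the log2 scale. Against control, the log2 fold change was -0.51 for PVP-AgNP (SE 0.125, unadjusted p = 0.00215, adjusted p = 0.115) and -0.06 for cit-AgNP (adjusted p = 1). Between the coatings it was -0.45 (95% interval -0.72 to -0.17, adjusted p = 0.258).

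Prdx3 had 11.64 and 12.29 in females and 11.98 and 11.53 in males given PVP-AgNP, 12.94 and 12.93 in females and 12.29 and 12.32 in males given cit-AgNP, and 12.44 and 12.96 in control females and 12.29 and 12.68 in control males. The highest PVP-AgNP value and the lowest control value were equal to 2 decimals, so that the absence of overlap rests on the next decimal, and PVP-AgNP and cit-AgNP values touched as well. In the fit, the log2 fold change was -0.73 for PVP-AgNP against control (SE 0.193, adjusted p = 0.125) and -0.76 for PVP-AgNP against cit-AgNP (SE 0.193, 95% interval -1.19 to -0.33, adjusted p = 0.248). For cit-AgNP against control it was 0.03, and its sign changed under other settings.

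Txnrd2 had 6.96 and 6.83 in females and 7.19 and 7.02 in males given PVP-AgNP, and 6.99 and 7.29 in females and 7.14 and 7.10 in males given cit-AgNP. The control livers were close together at 7.26 and 7.25 in females and 7.28 and 7.25 in males. Its log2 fold change was -0.26 for PVP-AgNP (SE 0.0899, adjusted p = 0.182) and -0.13 for cit-AgNP (adjusted p = 0.928). All 3 mitochondrial genes kept a negative log2 fold change in PVP-AgNP livers under every alternative tried, and none passed the adjusted threshold under any. Without PVP-AgNP mice 1 and 4 it was -0.43 for Txn2, -0.46 for Prdx3 and -0.25 for Txnrd2. The values nearest to 0 under any alternative were -0.35 for Txn2 and -0.15 for Txnrd2, both after quantile normalization, and -0.40 for Prdx3, with array quality as a covariate.

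Prdx2, a cytosolic peroxiredoxin, had the smallest p of the 32 genes in PVP-AgNP livers. It had 5.90 and 6.16 in females and 6.16 and 6.03 in males given PVP-AgNP, 6.16 and 6.29 in females and 6.28 and 6.38 in males given cit-AgNP, and 6.26 and 6.40 in control females and 6.49 and 6.71 in control males. The PVP-AgNP livers were below all others, though 2 of them equalled the lowest cit-AgNP liver to 2 decimals. This gave a log2 fold change of -0.40 for PVP-AgNP (SE 0.0881, unadjusted p = 0.000937, adjusted p = 0.0954, from 0.0647 to 0.427 over the alternatives) and -0.19 for cit-AgNP (adjusted p = 0.787).

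Txn1, the cytosolic thioredoxin, had 12.65 and 12.88 in females and 12.93 and 12.72 in males given PVP-AgNP, 12.85 and 12.87 in females and 12.85 and 12.84 in males given cit-AgNP, and 12.88 and 13.03 in control females and 13.07 and 12.96 in control males. Every cit-AgNP value was below every control value, by a small margin, and the log2 fold change was -0.13 (adjusted p = 0.951), against -0.19 for PVP-AgNP (adjusted p = 0.298). Txnrd1, the cytosolic thioredoxin reductase, had 9.25 and 9.40 in females and 9.46 and 9.18 in males given PVP-AgNP, 9.36 and 9.37 in females and 9.42 and 9.32 in males given cit-AgNP, and 9.30 and 9.44 in control females and 9.48 and 9.53 in control males. Its groups overlapped, with log2 fold changes of -0.12 for PVP-AgNP (adjusted p = 0.515) and -0.07 for cit-AgNP, and after quantile normalization the PVP-AgNP value turned positive. Prdx4, the peroxiredoxin of the endoplasmic reticulum, had log2 fold changes of 0.12 for PVP-AgNP and 0.06 for cit-AgNP.

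For the enzymes that remove superoxide and peroxide, the array could not measure the most abundant ones. Gpx1, the main liver glutathione peroxidase, read 18.33 on all 12 arrays, so that no change of it could be seen. Catalase (Cat) read 19.70 on 10 of the 12 arrays, with 19.63 and 19.68 in the PVP-AgNP females. All controls and the PVP-AgNP males read that repeated value, so the log2 fold change of -0.02 does not give the size of any change. Both genes stop at values of their own, under the maximum of 19.93 that the scale reaches, and the origin of such limits is not given in the sources used here. On the array as a whole, 230 probe sets repeated their highest value on at least 2 arrays and 94 were identical on all 12. Without genes of this kind, an alternative chosen after the values were seen, 28 of 30 antioxidant genes were below 0 in PVP-AgNP livers. Of the 30, 12 were lower at an unadjusted p of 0.05, against 12.1% of all genes.

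Sod1, the cytosolic copper and zinc superoxide dismutase, had 15.47 and 15.73 in females and 16.04 and 15.58 in males given PVP-AgNP, 16.03 and 15.89 in females and 15.69 and 15.71 in males given cit-AgNP, and 15.86 and 16.11 in control females and 16.10 and 16.03 in control males. One PVP-AgNP male lay among the controls and the other 3 mice below them. Its log2 fold change was -0.32 for PVP-AgNP (SE 0.134, unadjusted p = 0.0378, adjusted p = 0.221) and -0.20 for cit-AgNP (adjusted p = 0.921). Gpx4, which reduces lipid hydroperoxides in membranes, had 6.49 and 6.64 in females and 7.00 and 6.66 in males given PVP-AgNP, 6.74 and 6.72 in females and 6.75 and 6.88 in males given cit-AgNP, and 6.71 and 6.94 in control females and 6.95 and 7.20 in control males. Its log2 fold change was -0.25 for PVP-AgNP (SE 0.101, unadjusted p = 0.0312, adjusted p = 0.209) and -0.18 for cit-AgNP (adjusted p = 0.868).

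The mitochondrial superoxide dismutase Sod2 had means of 7.51 ± 0.21 in PVP-AgNP and 7.69 ± 0.07 in cit-AgNP livers, against 7.77 ± 0.22 in control livers (SD, n = 4 each). The secreted enzymes Sod3 and Gpx3 and the endoplasmic reticulum enzyme Gpx7 had dim signals and log2 fold changes between -0.19 and -0.03 for PVP-AgNP and between -0.13 and 0.06 for cit-AgNP. None of these 4 reached an unadjusted p of 0.05 with either coating. Among all genes, 12.2% were lower and 8.08% higher at that level for PVP-AgNP, and 3.82% and 2.74% for cit-AgNP.

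Of the 4 tested genes of glutaredoxins and methionine repair, 0 reached an unadjusted p of 0.05 with either coating. Among all genes, 12.2% were lower and 8.08% higher at that level for PVP-AgNP, and 3.82% and 2.74% for cit-AgNP. The median log2 fold change of the 4 was -0.29 for PVP-AgNP (-0.02 without PVP-AgNP mice 1 and 4) and 0.03 for cit-AgNP. Glrx, the cytosolic glutaredoxin, had log2 fold changes of -0.27 for PVP-AgNP (SE 0.295) and 0.30 for cit-AgNP (SE 0.295). The cit-AgNP females were at 9.15 and 9.78, 1 control female was at 9.30, and all other mice were at 8.76 or less. Glrx5, of mitochondrial iron-sulfur cluster assembly, had log2 fold changes of -0.31 for PVP-AgNP and 0.02 for cit-AgNP. Glrx2, the mitochondrial glutaredoxin, stayed within 6.39 to 6.55 in all 12 livers. Msra, which reduces oxidised methionine, had a log2 fold change of -0.40 for PVP-AgNP (adjusted p = 0.272) and -0.11 for cit-AgNP.

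NADPH supply was represented by Pgd and Taldo1 of the pentose phosphate pathway. Pgd, which produces NADPH, had 6.44 and 6.68 in females and 6.56 and 6.68 in males given PVP-AgNP, 6.87 and 6.98 in females and 6.70 and 6.85 in males given cit-AgNP, and 6.75 and 6.63 in control females and 6.87 and 7.02 in control males. All PVP-AgNP livers were below all cit-AgNP livers but overlapped the controls. Fitted log2 fold changes were -0.23 for PVP-AgNP against control (adjusted p = 0.239) and -0.26 for PVP-AgNP against cit-AgNP (95% interval -0.48 to -0.04, adjusted p = 0.327). Taldo1, transaldolase of the non-oxidative branch, had 6.57 and 7.05 in females and 7.22 and 6.95 in males given PVP-AgNP, 7.20 and 7.12 in females and 7.15 and 7.10 in males given cit-AgNP, and 6.87 and 6.91 in control females and 7.36 and 7.24 in control males, which overlapped.

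The coatings were also compared directly at their matched dose, size and time. Of the 32 genes, 26 were lower in PVP-AgNP than in cit-AgNP livers, against 50.2% of all genes, with a median log2 difference of -0.13. After adjustment 0 of 32 differed, with a background of 0 genes called out of 20020 and 2806 at an unadjusted p of 0.05. At that unadjusted level, 4 were lower with PVP-AgNP, namely Prdx3, Txn2, Pgd and Prdx2 (12.5%, against 8.71% of all genes), and Mafg was higher (3.12%, against 5.30%). For 3 of the 32, Txn2, Pgd and Prdx2, all PVP-AgNP livers were below all cit-AgNP livers (9.38%, against 4.83% of all genes), and for Mafg they were above (3.12%, against 2.38%). These data do not show that the coatings act alike on the other genes: for Nfe2l2 the difference was 0.11 with a 95% interval of -0.33 to 0.54, and for Nqo1 -0.09 with an interval of -0.51 to 0.32. Without PVP-AgNP mice 1 and 4, 2 genes were lower at an unadjusted p of 0.05, against 3.85% of all genes. The median difference in that fit was -0.01. The count was also 2 with PVP-AgNP mouse 1 left out, against 5.66% of all genes, and with cit-AgNP mouse 2 left out, against 5.57%. The number of the 32 genes below 0, 26 in the main fit, was 19 without PVP-AgNP mice 1 and 4. With the area as a covariate it was 18.

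The only antioxidant genes that passed the adjusted threshold differed between the sexes, over all treatments together. Of the 32, 2 passed (6.25%), against 2.17% of all genes called for sex (435 of 20020). Nqo1 was higher in females and Gsr was lower in females. At an unadjusted p of 0.05, 3 were higher and 6 lower in females, against 6.35% and 8.93% of all genes. Of the 32, 21 had a fitted level lower in females (65.6%), against 57.1% of all genes.

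Nqo1 averaged 7.25 ± 0.35 in females (lowest 6.76, median 7.20, highest 7.68) and 6.18 ± 0.43 in males (lowest 5.61, median 6.13, highest 6.92; SD, n = 6 each). Only the control male at 6.92 reached above the lowest female. The log2 fold change, female over male, was 1.07 (SE 0.153), a 2.10-fold difference, with an adjusted p of 0.00503 that stayed between 0.00362 and 0.0313 in all 22 alternatives. Within each treatment, both females were above both males.

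Gsr averaged 10.77 ± 0.24 in females (lowest 10.30, median 10.87, highest 10.91) and 11.38 ± 0.10 in males (lowest 11.23, median 11.40, highest 11.49). All females were below all males, as for 1.37% of all genes. The log2 fold change was -0.61 (SE 0.114, adjusted p = 0.0221). It passed in 13 of 22 alternatives, and the adjusted p was 0.0526 to 0.0587 when any of control mice 1, 3 and 4, cit-AgNP mice 2 and 4 or PVP-AgNP mice 3 and 4 was left out. Gclc was lower in females too, at 13.55 ± 0.69 in females and 14.56 ± 0.61 in males, but its log2 fold change of -1.01 did not pass (SE 0.304, adjusted p = 0.133). Ephx1 had -0.91 (SE 0.304, adjusted p = 0.179).

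**Figure D4:**
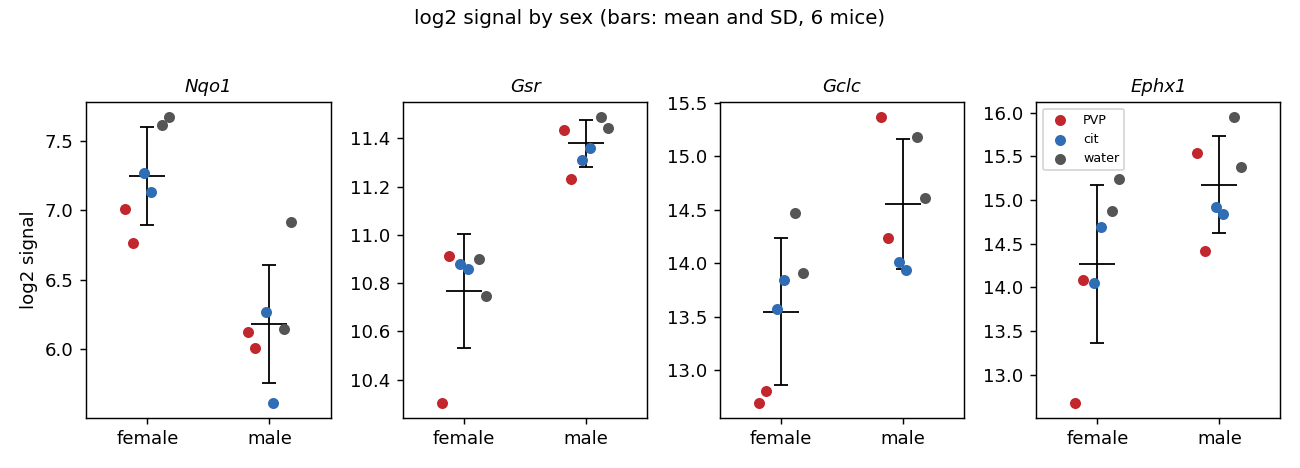
Log2 signal of Nqo1, Gsr, Gclc and Ephx1 in females (left) and males (right), with points coloured by treatment; the bar and whiskers give the mean and SD of 6 mice. Nqo1 is higher in females (7.25 against 6.18) and Gsr is lower (10.77 against 11.38).

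Females and males were then compared in their response to each coating, with 2 mice per sex and group. Of the 32 genes, 0 passed for PVP-AgNP and 0 for cit-AgNP, as did 0 of 20020 genes for each, with 725 (3.62%) and 489 (2.44%) genes at an unadjusted p of 0.05. At that level 1 of 32 genes, Gclc, was lower in the PVP-AgNP comparison (3.12%, against 1.92% of all genes). Its log2 difference from control was -1.45 in PVP-AgNP females and -0.09 in PVP-AgNP males, a difference of -1.36 between the sexes (SE 0.518, unadjusted p = 0.0296, adjusted p = 1). With 1 mouse left out, that difference ran from -1.92 (without PVP-AgNP mouse 4) to -0.79 (without PVP-AgNP mouse 3). For Nfe2l2 it was -0.99 in PVP-AgNP females and -0.25 in PVP-AgNP males (unadjusted p = 0.0591), and the difference of -0.74 ran from -1.07 to -0.41 with the same mice left out. In the cit-AgNP comparison the smallest p belonged to Pgd, with 0.24 in cit-AgNP females and -0.17 in cit-AgNP males (unadjusted p = 0.0503), and Taldo1, with 0.27 in cit-AgNP females and -0.18 in cit-AgNP males (unadjusted p = 0.0927).

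The neighbouring pathways were counted in lists of 102 genes, of which 90 were tested. In PVP-AgNP livers 73 of the 90 were below 0, with a median log2 fold change of -0.17, 18 lower and 2 higher at an unadjusted p of 0.05, against 50.5% of all genes below 0, 12.2% lower and 8.08% higher. Leaving out PVP-AgNP mice 1 and 4, 56 were below 0, with a median of -0.06, and 15 were lower, against 5.57% of all genes. In cit-AgNP livers 57 were below 0, with a median of -0.06, 6 lower and 2 higher, against 49.6%, 3.82% and 2.74% of all genes. One gene passed the adjusted threshold, in PVP-AgNP livers: Gstk1, a mitochondrial and peroxisomal glutathione transferase.

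Gstk1 had 13.91 and 13.67 in females and 13.85 and 13.38 in males given PVP-AgNP, 14.33 and 14.53 in females and 14.20 and 14.14 in males given cit-AgNP, and 14.59 and 14.94 in control females and 14.46 and 14.69 in control males. The PVP-AgNP livers were below all others. It fell by 0.97 on the log2 scale (SE 0.130, adjusted p = 0.0462), and it passed in 4 of 24 alternatives, with an adjusted p of up to 0.257 and a log2 fold change between -1.07 and -0.88. Without PVP-AgNP mice 1 and 4, 0 of all genes tested passed in this comparison, and 1940 had an unadjusted p under 0.05. For cit-AgNP it was -0.37 (adjusted p = 0.581).

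Of the 16 tested genes of glutathione use and breakdown, 15 were below 0 in PVP-AgNP livers and 7 were lower at an unadjusted p of 0.05, against 50.5% and 12.2% of all genes. Of the 16, 12 were below 0 and 5 were lower without PVP-AgNP mice 1 and 4, against 5.57% of all genes lower. The 7 included the glutathione transferases Gstm3, with a log2 fold change of -1.58 (adjusted p = 0.0631), and Gsta4, with -1.14 (adjusted p = 0.12). Txnip, the inhibitor of thioredoxin, had 10.39 and 11.25 in females and 10.17 and 9.69 in males given PVP-AgNP, 11.75 and 12.77 in females and 9.27 and 10.57 in males given cit-AgNP, and 12.51 and 12.15 in control females and 12.01 and 12.07 in control males. All PVP-AgNP livers were below all controls, and the log2 fold changes were -1.81 for PVP-AgNP (SE 0.453, adjusted p = 0.118) and -1.09 for cit-AgNP (SE 0.453, adjusted p = 0.712). The PVP-AgNP value was -1.48 without PVP-AgNP mice 1 and 4.

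Other targets of NRF2 lay on both sides of 0. Of 16 tested, 12 were below 0 in PVP-AgNP livers (11 without PVP-AgNP mice 1 and 4), against 50.5% of all genes, and 13 in cit-AgNP livers, against 49.6%. Ftl1, the ferritin light chain, had a log2 fold change of -0.44 for PVP-AgNP (adjusted p = 0.12) and Cbr1, a carbonyl reductase, -0.49 (adjusted p = 0.144). Hmox1, haem oxygenase, had 7.63 and 8.27 in females and 6.66 and 7.37 in males given PVP-AgNP, 7.17 and 6.80 in females and 6.84 and 7.13 in males given cit-AgNP, and 6.92 and 6.90 in control females and 6.30 and 7.10 in control males. Its log2 fold change was 0.68 for PVP-AgNP (SE 0.264, unadjusted p = 0.0277, adjusted p = 0.205) and 0.18 for cit-AgNP, and without PVP-AgNP mice 1 and 4 it was 0.66. The PVP-AgNP females were above all other mice, and PVP-AgNP mouse 3 was within the control range.

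Among the remaining lists, the selenophosphate synthetase Sephs2 had a log2 fold change of -0.68 for PVP-AgNP (adjusted p = 0.118), the mitochondrial NADPH source Idh2 had -0.45 (adjusted p = 0.163), and the amine oxidase Maob, which makes hydrogen peroxide, had -1.05 (adjusted p = 0.0954). Bhmt, of methionine regeneration from homocysteine, was on opposite sides of control, at -0.58 for PVP-AgNP (adjusted p = 0.204, and -0.32 without PVP-AgNP mice 1 and 4) and 0.54 for cit-AgNP (adjusted p = 0.716). In the list for NRF2 degradation and its partners, 0 of 10 tested genes reached an unadjusted p of 0.05 with either coating. Among all genes, 12.2% were lower and 8.08% higher at that level for PVP-AgNP, and 3.82% and 2.74% for cit-AgNP. For PVP-AgNP, 9 of the 10 were below 0 (7 without PVP-AgNP mice 1 and 4), against 50.5% of all genes. For cit-AgNP, 4 of the 10 were, against 49.6%.

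Markers of other liver cells were read in the same livers. For Kupffer cells and macrophages, which also express Hmox1, all 10 markers were above 0 with both coatings, and the log2 of their summed signal was 12.12 to 14.63 in PVP-AgNP and 11.81 to 13.49 in cit-AgNP livers, against 11.75 to 12.96 in control livers. For neutrophils and monocytes it was 9.41 to 12.71 in PVP-AgNP and 9.49 to 10.25 in cit-AgNP livers, against 7.79 to 10.24 in control livers. For stellate cells, all 7 markers were below 0 with both coatings, at 11.77 to 12.98 in PVP-AgNP and 12.08 to 12.77 in cit-AgNP livers, against 12.44 to 13.26 in control livers. Markers of sinusoidal endothelial cells were at 11.14 to 11.90 in PVP-AgNP and 11.40 to 11.97 in cit-AgNP livers, against 11.51 to 11.78 in control livers. The brightest markers weigh most in such sums. Among stellate cell markers Dcn had a mean log2 signal of 12.06, and the others had 4.88 to 8.57. No marker of these 4 lists passed the adjusted threshold in either comparison with control. At an unadjusted p of 0.05, 1 of 10 macrophage and 2 of 7 neutrophil and monocyte markers were higher with PVP-AgNP, against 8.08% of all genes. Lower were 2 of 7 stellate cell markers and 1 of 7 endothelial markers, Pecam1 (log2 fold change -0.35), against 12.2% of all genes. With cit-AgNP there were 0 in these 4 lists, against 2.74% of all genes higher and 3.82% lower. Of 10 macrophage markers, 10 had a fitted level higher in females than in males, where 57.1% of all genes were lower, and 7 were higher at an unadjusted p of 0.05, where 6.35% of all genes were. The part of these cells in the antioxidant values was not tested.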

How the data were processed

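Affymetrix whole-transcript arrays, 1 per mouse, measured liver RNA of 12 mice. The authors deposited log2 signal values; their processing notes name RMA and Transcriptome Analysis Console 4.0.1.36, giving no role for either, and the genome build is not given in the sources used here. Probe sets were named from the platform table, with 827 symbols brought up to date from a RefSeq table (GRCm38.p6), which also gave the promoter windows. Of 72688 probe sets, 30604 named 1 symbol; the brightest stood for its gene. Genes with a mean above the 40th percentile, log2 3.93, entered limma 3.58.1 (R 4.3.3; group and sex terms, trended variance, two-sided, Benjamini-Hochberg over 20020 genes, threshold 0.05); 6 group-by-sex means gave the sex differences in response. The fit was tested on simulated data. Labels name no cages or litters, so p-values measure the spread between these mice, and the number of arrays limits precision. The members and all lists were chosen with earlier results of these data known. Per-mouse values are printed for members of smallest p in each comparison and for a fixed group of NRF2, glutathione and thioredoxin genes; values of Gss, Txn1, Sod1, Gpx4, Gstk1, Txnip and Hmox1 were added after they were seen. From each neighbouring list, up to 3 genes of smallest p for PVP-AgNP are named. Alternatives covered scaling, filtering, probe choice, model terms, array quality and leaving out mice.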

Additional observations from a re-analysis of the deposited data

Results flagged for a closer look

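For 94 pairs of a gene and a group, it was checked whether 1 mouse of 4 stood apart from the others by Dixon's criterion, which chance meets for about 1 group in 20. It did in 3. Keap1 was highest, at 7.39, in control mouse 4. Gpx3 was lowest, at 4.75, in PVP-AgNP mouse 3, and highest, at 5.50, in control mouse 4.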

How the results depend on the processing

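No antioxidant gene passed the adjusted threshold for either coating, between the coatings or in a sex difference in response under any alternative, with 0 in every fit that left out 1 mouse. The median log2 fold change for PVP-AgNP against control was -0.15 after quantile normalization, -0.11 with array quality as a covariate and -0.13 without PVP-AgNP mice 1 and 4, and -0.31 to -0.20 with 1 mouse left out. The number lower at an unadjusted p of 0.05 was 6 with the covariate and 4 without those mice. With 1 mouse left out it was 7 to 16 (7 without PVP-AgNP mouse 1, 8 without mouse 4). In the same order, 6.66%, 5.57% and 8.60% to 14.4% of all genes were lower. For PVP-AgNP against cit-AgNP the median was -0.0223 with the covariate, -0.0142 without PVP-AgNP mice 1 and 4, and -0.17 to -0.04 with 1 mouse left out. The number lower in those fits was 2, 2, and 2 to 5, with 2 also without cit-AgNP mouse 2 or PVP-AgNP mouse 1. In the same order, 5.23%, 3.85% and 5.57% to 10.9% of all genes were lower. For cit-AgNP against control, the number lower was 2 without the sex term, 7 with the covariate and 7 with array weights. It was 1 to 6 with 1 mouse left out (1 without control mouse 3, 2 without cit-AgNP mouse 3). In the same order, 3.24%, 5.10%, 5.52% and 2.60% to 4.51% of all genes were lower in these fits. For sex, Nqo1 alone passed with arrays centred on their median (1 gene; Gsr did not pass, with an adjusted p of 0.0715), and 1 to 2 with 1 mouse left out. Values near 0 changed sign. For cit-AgNP against control, Prdx3 was -0.00035 with centred arrays, -0.0219 with array weights, and -0.0960 to 0.125 with 1 mouse left out, being -0.0207, -0.0960, -0.0291 and -0.0229 without control mice 1 and 2 and cit-AgNP mice 1 and 2. With 1 mouse left out, Srxn1 ran from -0.141 to 0.00147 (highest without control mouse 2), and Txn2 from -0.157 to 0.0223, being 0.0223 and 0.00112 without control mice 3 and 4. For PVP-AgNP against control, Txnrd1 was 0.0389 after quantile normalization. The causes were not tested. Same-numbered mice did not pair: their residuals correlated at a median r of -0.115 over 12 pairs, and 2 pairs exceeded 0.1. With the replicate block, 2 genes were lower at an unadjusted p of 0.05 for cit-AgNP, against 3.46% of all genes. In that fit 1 gene, Nqo1, passed for sex (Gsr did not, with an adjusted p of 0.238). Mice numbered 2 were female and mice numbered 3 male in every group, so the block takes up part of the sex difference. Over all genes, 58 passed for sex with the block, against 435 in the main fit. Over all genes, the count for PVP-AgNP against control was 8, with 0 under the replicate block, 0 without PVP-AgNP mice 1 and 4, 2 with the covariate, 37 with array weights, 51 without the variance trend, and 1 to 61 with 1 mouse left out.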
